A study of Homo sapiens with 64 samples.

Results

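The peaks described here are those of γ-tubulin and PCNA in asynchronous cells with and without an shRNA against TUBG. They were chosen by label alone. All peaks of the 4 lists for these antibodies, in both cell lines, without synchronization were taken, which gave 401 of the 2442 peaks in the 24 lists of the series. The question they address is which chromatin positions are still called when γ-tubulin is lowered, which are no longer called, and which are called only then.

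The assay was ChIP-seq, in which DNA bound to a protein is pulled down with an antibody (chromatin immunoprecipitation) and then sequenced. The control group was U2OS, an established human osteosarcoma line. The other group, shTUBG U2OS, was the same line stably expressing an shRNA against TUBG, which lowers γ-tubulin without removing it. Whether it was 1 clone or a pool of transfected cells was not given in the sources used here, and the peak lists hold no measure of the γ-tubulin level. Both lines were grown in the same serum-supplemented medium with no thymidine block, so each list mixes cells of all cell cycle phases. Nuclei were lysed, and chromatin was cut with micrococcal nuclease before precipitation with a mix of rabbit antibodies to γ-tubulin or with a monoclonal antibody to PCNA. The labels name 2 samples for each antibody and line, 8 in all, but 1 list covers both samples of a group. There is therefore no replicate error, and no p-value is given. The intervals below are exact 95% Clopper-Pearson intervals, which cover counting error only. Peaks lie close together in a few places, so they are not independent and the intervals are too narrow. The read depth behind the lists is unknown. The γ-tubulin list of shTUBG U2OS stood apart from the others, since of its 69 peaks that shared no base with the U2OS list only 23 overlapped a peak in any other list. The reads behind it were not examined here.

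γ-Tubulin nucleates microtubules at the centrosome and is also found in the nucleus, where it is attached to chromatin. PCNA is the sliding clamp that holds DNA polymerases on the template during replication and repair. Much of what follows lies in repeated sequence. Satellite arrays surround the centromeres, the genes for ribosomal RNA are present in many copies, some of them on the unplaced scaffold gl000220, and fragments of the mitochondrial genome have been copied into the nuclear chromosomes. Reads from such sequence can map to many places, and the assembly holds fewer copies than the cell.

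γ-Tubulin was called at almost as many peaks in shTUBG U2OS as in U2OS, but at different places. The U2OS list held 102 γ-tubulin peaks and the shTUBG U2OS list 94. Together they covered 60668 bp in U2OS and 57239 bp in shTUBG U2OS, a change of -5.65%. Only 24582 bp were common to both lists, which was 40.5% of the U2OS bases. Of these common bases 14899 lay on the mitochondrial genome. Outside it the lists shared 9683 bp, or 21.7% of the U2OS bases and 22.9% of the shTUBG U2OS bases.

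A peak was taken as kept when it overlapped a peak of the same antibody in the other line by at least 25% of both peaks, the overlap rule of the study. It was taken as touched when it shared at least 1 bp but less than that, and as lost (U2OS) or new (shTUBG U2OS) when it shared no base. Of the 102 γ-tubulin peaks of U2OS, 22 were kept (21.6%, 14 to 30.8), 7 were touched and 73 were lost (71.6%, 61.8 to 80.1). Lost and touched peaks together made up 78.4% of the list. Of the 94 γ-tubulin peaks of shTUBG U2OS, 20 were kept, 5 were touched and 69 were new (73.4%, 63.3 to 82). New and touched peaks together made up 78.7%. Seen from either line, fewer than 1 in 4 γ-tubulin peaks had a counterpart under this rule.

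PCNA differed less between the lines in position. The U2OS list held 118 PCNA peaks and the shTUBG U2OS list 87, a change of -26.3%, compared with -7.84% for γ-tubulin. With peaks within 1000 bp merged, these changes were -15.7% and 23.4%, so which antibody differed more in number depends on the merging. Of the 118, 61 were kept (51.7%, 42.3 to 61), 2 were touched and 55 were lost (46.6%, 37.4 to 56), so that lost and touched peaks made up 48.3%. Of the 87 in shTUBG U2OS, 62 were kept (71.3%, 60.6 to 80.5), 8 were touched and 17 were new (19.5%, 11.8 to 29.4). New and touched peaks made up 28.7%. This share was 47.1% when overlap by 50% of both peaks was asked for and 53.5% with peaks within 1000 bp merged. By bases, 34932 of the 43288 bp of shTUBG U2OS (80.7%) were also under a PCNA peak of U2OS. The interval of the kept share in U2OS for PCNA did not overlap that for γ-tubulin.

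**Figure D1:**
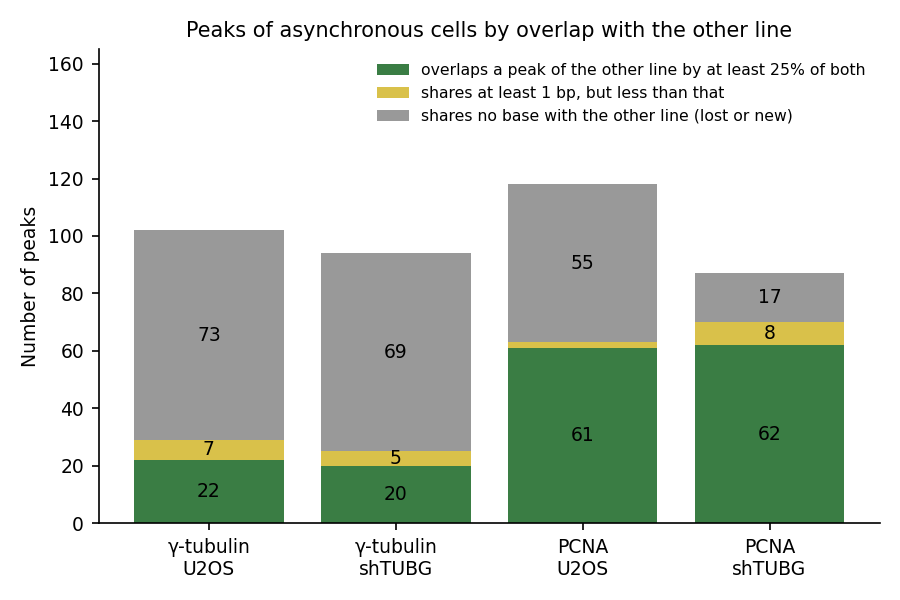
Number of peaks (vertical axis) in each of the 4 lists, split by overlap with the list of the same antibody in the other line. γ-Tubulin shows 22 kept and 73 lost peaks in U2OS and 69 new peaks in shTUBG U2OS, whereas PCNA shows 61 kept and 55 lost peaks in U2OS and 17 new peaks in shTUBG U2OS.

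Lost γ-tubulin peaks lay mostly where peaks are crowded, and new ones were most often at scattered positions. Peaks were sorted into the mitochondrial genome, scaffold gl000220, other scaffolds, clusters on chromosomes and dispersed peaks on chromosomes. A cluster is a chain of peaks less than 100 kb apart, counted over all 24 lists, with at least 10 peaks. Of the 24 lists 16 are of U2OS, so a place called again and again in U2OS becomes a cluster and a place called once becomes dispersed. The split between these kinds is therefore partly set by the definition. In U2OS, 60 of the γ-tubulin peaks lay in clusters on chromosomes (58.8%, 48.6 to 68.5), compared with 26 in shTUBG U2OS (27.7%, 18.9 to 37.8). Dispersed peaks on chromosomes numbered 9 in U2OS (8.82%, 4.11 to 16.1) and 40 in shTUBG U2OS (42.6%, 32.4 to 53.2). Scaffold gl000220 held 11 peaks in U2OS and 17 in shTUBG U2OS, and the other scaffolds held 17 and 3. Of the lost γ-tubulin peaks 50 lay in clusters on chromosomes, 17 on other scaffolds and 1 on the mitochondrial genome, and 5 were dispersed. Of the new γ-tubulin peaks 36 were dispersed, 19 lay in clusters on chromosomes, 11 on gl000220 and 3 on other scaffolds. For PCNA the makeup of the lists was similar, with 76 peaks in clusters on chromosomes in U2OS (64.4%, 55.1 to 73) and 54 in shTUBG U2OS (62.1%, 51 to 72.3), and 1 dispersed peak in each line. The exception was scaffold gl000220, which held 0 PCNA peaks in U2OS and 7 in shTUBG U2OS.

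**Figure D2:**
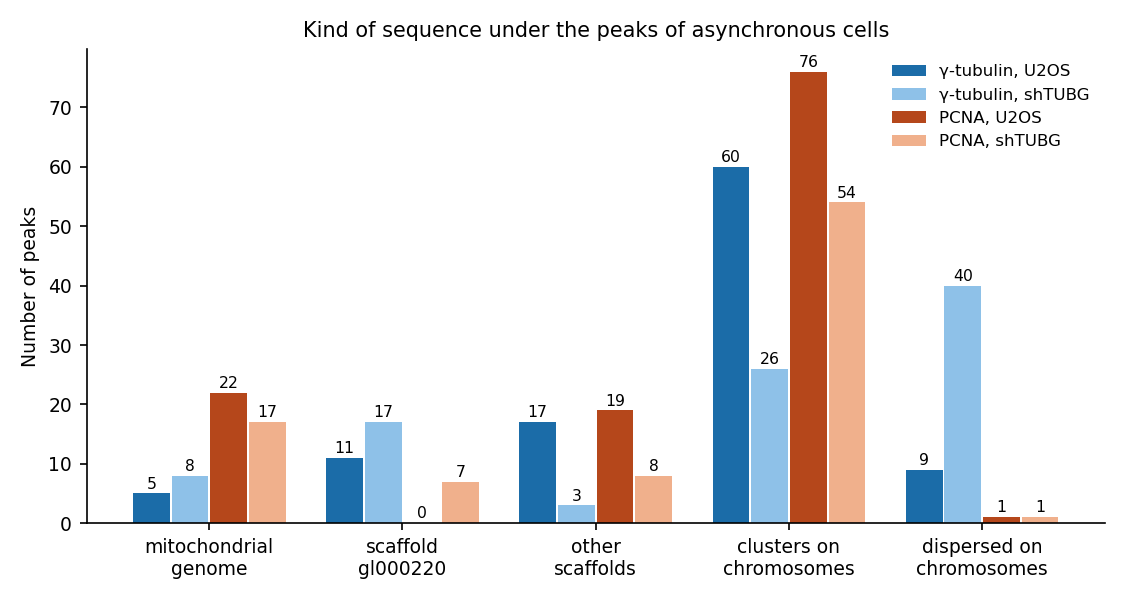
Number of peaks (vertical axis) by kind of sequence (horizontal axis) in the 4 lists of asynchronous cells. γ-Tubulin peaks in clusters on chromosomes number 60 in U2OS and 26 in shTUBG U2OS and dispersed peaks 9 and 40, while PCNA has 76 and 54 peaks in clusters and 1 dispersed peak in each line.

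Lost γ-tubulin peaks were found mainly at the edges of centromeres and on scaffold gl000226, a short unplaced piece of assembly. In 8 clusters with at least 5 peaks in one of the lists, γ-tubulin had 56 peaks in U2OS and 0 in shTUBG U2OS. They lie on chromosomes 2, 7, 10 (in 2 places), 11, 16 and 19 and on gl000226. PCNA had 78 peaks in these 8 clusters in U2OS and 45 in shTUBG U2OS, and was called in each of the 8 in both lines. Clusters on chromosomes 7, 16 and 19 are among the 8 only through their PCNA peaks in U2OS, so the presence of PCNA there is partly set by the choice. Over all 21 places outside the mitochondrial genome where γ-tubulin went from at least 1 peak to 0, peaks of the antibody numbered 71 and 0, and PCNA was called in 16 of the places in U2OS and 14 in shTUBG U2OS.

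The cluster at chr10:42380218-42400754, beside the centromere of chromosome 10, held the most γ-tubulin peaks of U2OS on any chromosome. γ-Tubulin had 15 peaks there in U2OS, covering 9304 bp, and 0 in shTUBG U2OS. PCNA had 12 peaks over 12692 bp in U2OS and 15 peaks over 10174 bp in shTUBG U2OS, and all 10174 bp were also covered in U2OS. The PCNA bases of shTUBG U2OS were therefore a subset of those of U2OS there. A second cluster on the same chromosome, chr10:42527927-42600478, held 7 γ-tubulin peaks in U2OS and 0 in shTUBG U2OS, with 9 and 7 PCNA peaks. At chr11:51579447-51591334 the γ-tubulin peaks numbered 6 and 0 and the PCNA peaks 6 and 4.

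PCNA also had fewer peaks at some of these places. At chr2:92269028-92325250, next to the centromere of chromosome 2, γ-tubulin had 5 peaks in U2OS and 0 in shTUBG U2OS, and PCNA had 14 and 3. At chr16:46391021-46424936 γ-tubulin had 1 and 0 peaks and PCNA 8 and 3. The smaller clusters at chr7:61967330-61971190 and chr19:27731888-27738911 held 2 and 3 γ-tubulin peaks in U2OS, none of them in shTUBG U2OS, and both held 5 PCNA peaks in U2OS and 3 in shTUBG U2OS.

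Scaffold gl000226 carried the most γ-tubulin peaks of any place in U2OS. γ-Tubulin had 17 peaks between bases 830 and 14898, 215 to 629 bp wide, and PCNA had 19. In shTUBG U2OS γ-tubulin had 0 peaks there, and PCNA had 7, all of them at kept positions. None of the 17 γ-tubulin peaks was kept, and a count of 0 in 17 allows a kept share of up to 17.6% when taken as 3 counts of the total, or 19.5% by the exact interval. A list holds only peaks above the threshold of the peak caller, so a position without a peak may still hold some protein.

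**Figure D3:**
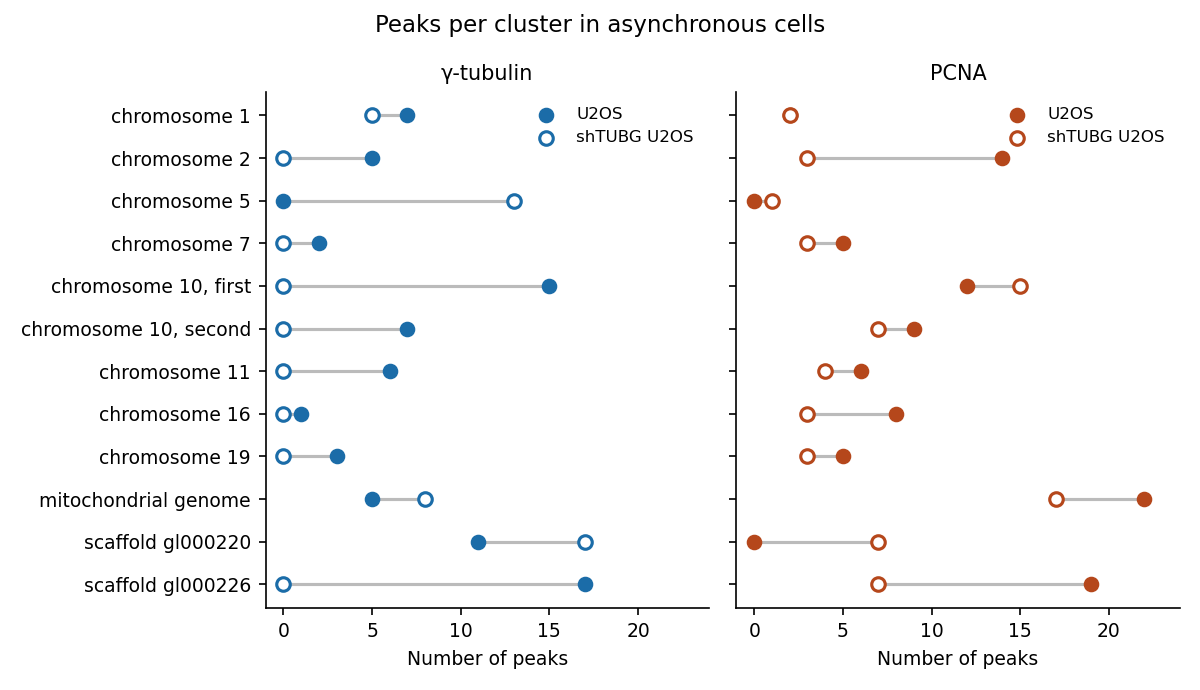
Number of peaks (horizontal axes) in the 12 clusters with at least 5 peaks in one of the 4 lists, with γ-tubulin on the left and PCNA on the right, and filled points for U2OS and open points for shTUBG U2OS. γ-Tubulin has 0 peaks in shTUBG U2OS in 8 clusters where PCNA has 3 to 15, and it has 13 peaks in shTUBG U2OS and 0 in U2OS in the cluster on chromosome 5.

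Of the 5 lost γ-tubulin regions with the highest scores, 4 were among the 5 kept PCNA regions with the highest scores. The lists give each peak a score of unstated meaning, which is used here only as a rank within its own list. The lost γ-tubulin peak with the highest score was at chr1:121484059-121485443, beside the centromere of chromosome 1, and was 1385 bp wide. Its score of 353 was the highest of the 102. PCNA had its own highest score in both lines at that place, 708 at chr1:121484023-121485470 in U2OS and 382 at chr1:121484054-121485445 in shTUBG U2OS. The next 4 lost γ-tubulin peaks by score were at chr10:42599492-42600449 (score 308), chr10:42596791-42597261 (288), chr7:61968680-61969704 (283) and chr10:42384194-42385783 (269). PCNA was kept at each of these places.

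Seen over all positions, PCNA was called in both lines at 49 of the 72 lost γ-tubulin peaks outside the mitochondrial genome. It was called in U2OS alone at 16 and in neither line at 7. At the 18 kept γ-tubulin peaks there, PCNA was called in both lines at 2, in U2OS alone at 1, in shTUBG U2OS alone at 6 and in neither at 9. At the 7 touched peaks it was called in both lines at 0, in shTUBG U2OS alone at 3 and in neither at 4. From the side of PCNA, 39 of the 43 kept PCNA peaks outside the mitochondrial genome shared bases with a γ-tubulin peak in U2OS alone, 1 did so in both lines and 3 had no γ-tubulin peak. Of the 52 lost PCNA peaks there, 16 shared bases with a γ-tubulin peak in U2OS alone, 2 did so in both lines and 34 had no γ-tubulin peak. When the peaks of the 4 lists were merged into 191 regions, the most frequent combination was new γ-tubulin with no PCNA in either line, at 66 regions. Lost γ-tubulin with kept PCNA accounted for 39 regions, lost γ-tubulin with lost PCNA for 16 and lost PCNA with no γ-tubulin in either line for 34.

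The PCNA peaks of shTUBG U2OS were also set against the other asynchronous lists. Outside the mitochondrial genome, 59 of the 70 PCNA peaks of shTUBG U2OS (84.3%, 73.6 to 91.9) overlapped a γ-tubulin peak of U2OS, and 47 (67.1%, 54.9 to 77.9) overlapped a PCNA peak of U2OS. Overlap with Mcm5, a subunit of the replicative helicase, in asynchronous U2OS was of like size, at 56 peaks (80%, 68.7 to 88.6). For the transcription factor FoxM1 in asynchronous U2OS it was 50 peaks (71.4%, 59.4 to 81.6). The shares are over the same 70 peaks, so their separate intervals cannot decide the order of the shares, which was not tested. The overlap was not particular to γ-tubulin. The edges of overlapping peaks lay a median of 22.5 bp apart for pairs with γ-tubulin of U2OS and 42.5 bp for pairs with PCNA of U2OS. For each pair the width of the PCNA peak of shTUBG U2OS was divided by that of its U2OS partner. The median of these ratios was 0.981 for γ-tubulin partners and 0.68 for PCNA partners. Edges and widths were not compared for Mcm5 or FoxM1 partners, so whether this closeness is particular to γ-tubulin was not tested. In shTUBG U2OS itself, 7 of the 70 PCNA peaks overlapped a γ-tubulin peak of that line (10%, 4.12 to 19.5).

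On the ribosomal DNA scaffold gl000220 the γ-tubulin peaks of shTUBG U2OS took in every U2OS peak. In U2OS γ-tubulin had 11 peaks there over 4799 bp, and in shTUBG U2OS 17 peaks over 15344 bp. All 4799 bp were covered in both lines, so none of the U2OS positions was lost. By the overlap rule 5 of the 11 U2OS peaks were kept and 6 were touched. The scaffold took up 7.91% of the bases under γ-tubulin peaks in U2OS and 26.8% in shTUBG U2OS. The peak at 110026 to 111008 in U2OS (983 bp) lay within a peak at 109179 to 111759 in shTUBG U2OS (2581 bp), the widest γ-tubulin peak of that line outside the mitochondrial genome. That peak also took in 2 narrower U2OS peaks. A second wide peak, at 153161 to 155726 (2566 bp), replaced U2OS peaks at 153220 to 153552 and 153721 to 154852. Of the 17 peaks in shTUBG U2OS 11 were new, and the highest scores among all new γ-tubulin peaks were at 113192 to 113975 (score 199) and at 111829 to 112634 (152) on this scaffold.

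PCNA appeared on gl000220 in shTUBG U2OS with 7 peaks over 2390 bp. The highest scores were 91 at 159861 to 160104, 74 at 109960 to 110359 and 65 at 154022 to 154364, and the γ-tubulin lists of both lines had peaks that shared bases with each. Of the 15 new PCNA peaks outside the mitochondrial genome, 13 shared bases with a γ-tubulin peak of shTUBG U2OS and 10 with γ-tubulin peaks of both lines. The new PCNA peak with the highest score, 142, lay at 98835 to 99049 on the scaffold chr9_gl000199_random, where γ-tubulin had no peak in either line.

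The other γ-tubulin peaks kept in both lines lay at few places. Outside the mitochondrial genome and gl000220 there were 13 kept peaks in U2OS. Of these, 5 were in the cluster at chr1:564625-570258, which is known as a nuclear copy of mitochondrial DNA. γ-Tubulin had 7 peaks there in U2OS and 5 in shTUBG U2OS, and its highest score in shTUBG U2OS, 350, was at chr1:565740-566632. The U2OS peak at this place, chr1:566080-566640, had a score of 310. Kept peaks of U2OS were also called at chr1:567247-567689 (score 50) and chr1:567851-568199 (score 139). Both overlapped the same peak of shTUBG U2OS, chr1:567277-568193. Further kept peaks with high scores were at chr11:10530752-10531280 (score 253 in U2OS, 173 in shTUBG U2OS) and at chr21:9827109-9827564 (139, and 170 for chr21:9826724-9827592).

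New γ-tubulin peaks were narrow, of low rank and spread over many places. The 69 lay on 17 chromosomes and scaffolds, in 32 places more than 100 kb apart. At 18 of these places, with 29 of the new peaks, none of the other 23 lists had a peak. Another 3 places with 4 new peaks had peaks in other shTUBG U2OS lists only, and 11 places with 36 new peaks had a peak in some U2OS list.

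The largest group of new γ-tubulin peaks was the cluster at chr5:17518296-17599509, with 13 peaks in shTUBG U2OS over 5740 bp and 0 in U2OS. Their scores ran from 52 to 113, and the highest was that of chr5:17599073-17599509. PCNA had 0 peaks there in U2OS and 1 in shTUBG U2OS, 205 bp wide. The γ-tubulin list of shTUBG U2OS at 3 h after release from a thymidine block held 4 peaks in this cluster, and no other γ-tubulin list held any. Mcm5 had 1 peak in the cluster in U2OS at 3 h and 1 in asynchronous U2OS. New γ-tubulin peaks with high scores were also called at chr21:9825473-9826406 (148), next to the kept peak on that chromosome, and at chr4:167501217-167501815 (111). On chromosome 4 PCNA was new as well, at chr4:167501322-167501555.

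Some places fell outside the rule for naming regions and were picked after their values were seen. On chromosome 8 there were 10 new γ-tubulin peaks, with scores of 26 to 104, and 0 γ-tubulin peaks in U2OS. Chromosome 19 held 8 new peaks, of which 4 lay at chr19:37766232-37786754, where no other list had a peak. On chromosome 17, γ-tubulin had 3 new peaks at chr17:40766222-40766667 (score 88), chr17:40766731-40767005 (48) and chr17:40818047-40818594 (84). These positions are at the neighbouring genes TUBG1 and TUBG2, which encode γ-tubulin, from general knowledge of this genome build and not from an annotation. In asynchronous U2OS neither γ-tubulin nor PCNA had a peak within 100 kb. Peaks were called in that neighbourhood in 9 of the 24 lists, 4 of them of shTUBG U2OS and 5 of U2OS.

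Width separated kept from other peaks differently for each antibody. For γ-tubulin outside the mitochondrial genome, the median width in U2OS was 396 bp for kept and 363 bp for lost peaks, with ranges of 203 to 1132 bp and 200 to 1656 bp. These ranges overlap almost entirely. The widest γ-tubulin peak of U2OS outside the mitochondrial genome, chr5:10144-11799 (1656 bp), was itself lost. In shTUBG U2OS the median was 734 bp for kept and 280 bp for new peaks, and 53.6% of the new peaks (41.2 to 65.7) were under 300 bp wide. The median rank of the score within its list, as a percentile, was 85.4 for kept and 36.7 for new peaks. The shTUBG U2OS list had 10 peaks of exactly 200 bp, the least width in any list, and the U2OS list had 2.

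For PCNA, lost peaks were the narrow ones of low rank. Outside the mitochondrial genome the median width in U2OS was 503 bp for kept and 256 bp for lost peaks. Of the kept peaks 11.6% (3.89 to 25.1) were under 300 bp, compared with 61.5% of the lost peaks (47 to 74.7). The median score percentile was 80.1 for kept and 32.8 for lost peaks. The 5 lost PCNA regions with the highest scores were at chr19:27737462-27737691 (score 198), chr11:51582714-51583030 (183), chr9:67320481-67320926 (168), chr10:42380218-42380435 (152) and chr18:18519960-18520308 (140). They were 218 to 446 bp wide. γ-Tubulin was lost as well at those on chromosomes 9, 11 and 18 and had no peak in either line at the others.

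**Figure D4:**
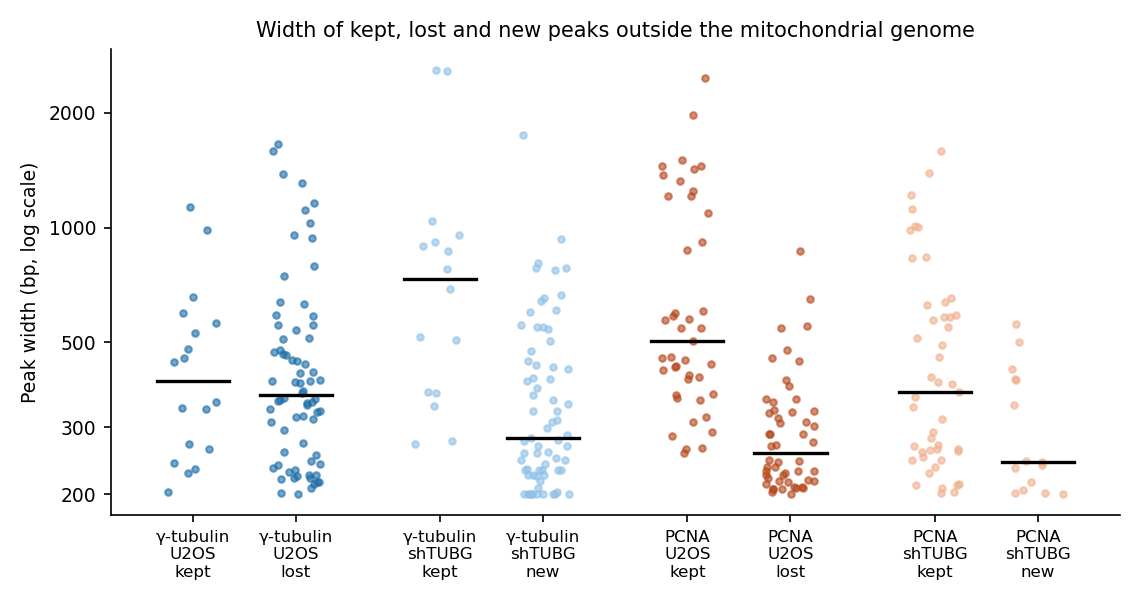
Peak width in bp on a log axis (vertical) for kept peaks and for lost or new peaks outside the mitochondrial genome in each list, with 1 point per peak and a bar at the median. The medians are 396 and 363 bp for kept and lost γ-tubulin peaks of U2OS, 734 and 280 bp for kept and new γ-tubulin peaks of shTUBG U2OS, and 503 and 256 bp for kept and lost PCNA peaks of U2OS.

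Peaks kept in both lines differed in width, in opposite directions for the antibodies. Outside the mitochondrial genome there were 18 overlapping pairs of γ-tubulin peaks, of which 17 were wider in shTUBG U2OS and 1 was narrower. The ratio of widths, shTUBG U2OS to U2OS, had a median of 1.99 and a range of 0.454 to 3.84. Wider pairs were 5 of 5 on gl000220, by 2.1 to 2.84 times, 8 of 9 in clusters on chromosomes and 4 of 4 among dispersed peaks. PCNA had 47 such pairs, of which 46 were narrower in shTUBG U2OS and 1 was 263 bp against 262 bp. The median ratio was 0.68. A peak can be in more than 1 pair. The 18 γ-tubulin pairs rest on 16 peaks of shTUBG U2OS, and the 47 PCNA pairs on 43 peaks of U2OS. At the largest γ-tubulin ratio, 3.84, a peak of 780 bp in shTUBG U2OS overlapped U2OS peaks of 529 and 203 bp. The ratios thus also take in peaks that were joined or split between the lists.

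The wide PCNA peaks at centromere edges were narrower or in pieces in shTUBG U2OS. The widest PCNA peak of U2OS, chr6:58776259-58779430 (3172 bp), was split into 4 peaks of 246 to 792 bp in shTUBG U2OS, all of which lay within it. At chr10:42384139-42386600 a peak of 2462 bp with a score of 516 in U2OS was matched by peaks at chr10:42384186-42385772 (1587 bp, score 275), the widest PCNA peak of shTUBG U2OS, and at chr10:42385890-42386229. A peak at chr10:42392201-42393524, also with a score of 516, was matched by peaks at chr10:42392242-42392879 (311) and chr10:42392974-42393486 (119). The kept peaks at chr10:42598968-42600469 (617) and chr10:42596730-42597316 (546), second only to that on chromosome 1, had partners with scores of 343 and 334, which were at the 98.3 and 97.1 percentiles of the shTUBG U2OS list. The 3 highest PCNA scores outside the mitochondrial genome were thus at the same places in both lists.

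On the mitochondrial genome the pair widths and the PCNA bases went the other way, but the γ-tubulin bases did not. γ-Tubulin covered 16084 bp there in 5 peaks in U2OS and 14973 bp in 8 peaks in shTUBG U2OS, and 14899 bp were common. The change was -6.91%, compared with -5.2% outside the mitochondrial genome. The widest γ-tubulin peak of each line was mitochondrial, at bases 1840 to 8247 in U2OS (6408 bp) and at bases 25 to 4136 in shTUBG U2OS (4112 bp). PCNA covered 9925 bp in 22 peaks in U2OS and 11930 bp in 17 peaks in shTUBG U2OS, a change of 20.2%, compared with -38.2% outside it. Of 18 overlapping PCNA pairs 15 were wider in shTUBG U2OS, with a median ratio of 1.66, and of 5 γ-tubulin pairs 1 was wider. The 18 PCNA pairs rest on 15 peaks of shTUBG U2OS, and the 5 γ-tubulin pairs on 4 peaks of each line.

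**Figure D5:**
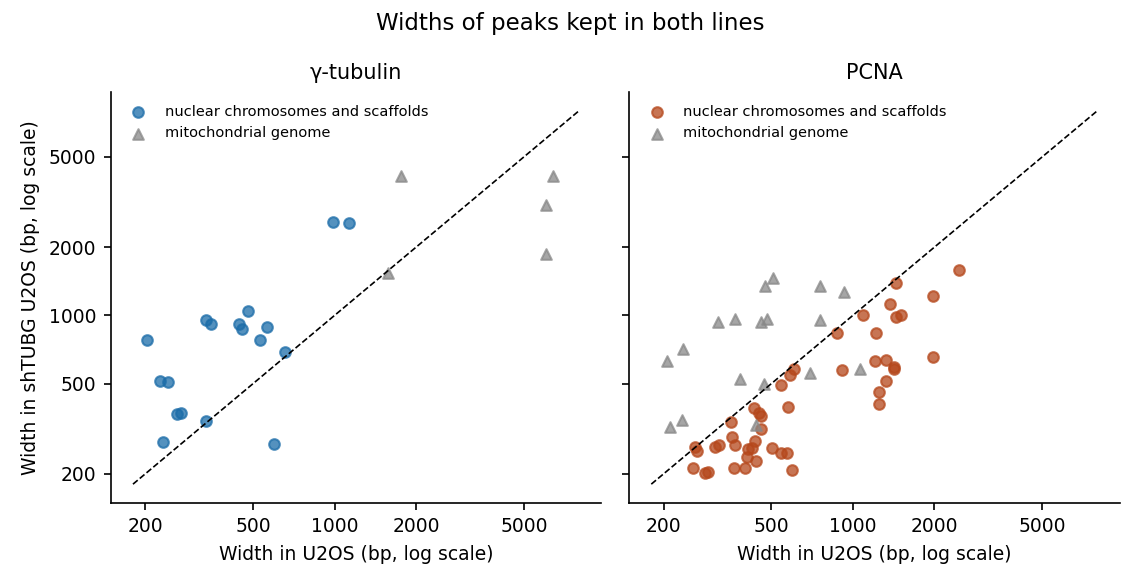
Width in shTUBG U2OS (vertical) against width in U2OS (horizontal) for overlapping peak pairs of γ-tubulin (left) and PCNA (right), in bp on log axes, with the dashed line marking equal widths. Of the 18 γ-tubulin pairs outside the mitochondrial genome 17 lie above the line and of the 47 PCNA pairs 46 lie below it, while 15 of the 18 mitochondrial PCNA pairs lie above it.

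Lost and new positions were looked for in the other lists of the series. Of the 73 lost γ-tubulin peaks, 68 overlapped a γ-tubulin peak of U2OS at another time (93.2%, 84.7 to 97.7). Of the same 73, 65 overlapped a peak of some shTUBG U2OS list, of γ-tubulin or PCNA, but mostly of PCNA. In that line 0, 1 and 13 overlapped a γ-tubulin peak at 3, 7 and 9 h. For PCNA the counts were 40, 11 and 51 at these times and 48 in asynchronous cells. Of the 69 new γ-tubulin peaks, 18 overlapped a γ-tubulin peak of shTUBG U2OS at another time (26.1%, 16.3 to 38.1), and 23 overlapped a peak in any of the other 23 lists (33.3%, 22.4 to 45.7). Lost γ-tubulin positions were thus mostly called again for γ-tubulin in U2OS, whereas few were called for it in shTUBG U2OS at each time. Most new γ-tubulin positions were called once. For PCNA, 48 of the 55 lost peaks overlapped a PCNA peak of U2OS at another time, and 15 of the 17 new peaks were at positions found in at least 1 U2OS list (88.2%, 63.6 to 98.5).

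The same comparison at 3, 7 and 9 h after release gave kept shares for γ-tubulin of 6.5%, 5.33% and 9.15% of the U2OS peaks, compared with 21.6% in asynchronous cells. The shTUBG U2OS lists held 33, 42 and 67 peaks at these times, which limits those shares. Seen from shTUBG U2OS the kept shares were 24.2%, 11.9% and 22.4%, compared with 21.3%. For PCNA the shares of U2OS peaks were 36.5%, 35.3% and 77.7%, compared with 51.7%. The 7 h value rests on 17 PCNA peaks in U2OS, 0 of which lay outside the mitochondrial genome. Outside it the kept share was 94.3% at 9 h, compared with 44.8% in asynchronous cells. In the 8 clusters where asynchronous γ-tubulin went from 56 peaks to 0, it had 76 peaks in U2OS and 0 in shTUBG U2OS at 3 h, 48 and 0 at 7 h, and 108 and 13 at 9 h. On gl000226 it had 18, 12 and 17 peaks in U2OS at these times and 0 in shTUBG U2OS at each. Dispersed γ-tubulin peaks did not show one direction, with 8 and 8 at 3 h, 3 and 6 at 7 h, and 8 and 3 at 9 h, compared with 9 and 40 in asynchronous cells. There is 1 list per time and line, so these differences between times were not tested.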

How the data were processed

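γ-Tubulin and PCNA ChIP-seq peak lists of asynchronous U2OS and shTUBG U2OS were used, and the other 20 of the 24 lists for comparison. Each deposited list gives chromosome, start, end and a whole-number score whose meaning the authors did not state. According to the submitters' processing notes, Bowtie2 2.1.0, SAMtools 1.7-13, MACS2 and build hg19 were used. How samples and input were combined, the peak threshold and the treatment of duplicates and repeats were not given in the sources used here. Mapping of repeated sequence, depth and threshold can each change peak number and width. No hg19 genome or annotation was used, so genes were not assigned to peaks, and TUBG1 and TUBG2 are named from general knowledge. Input samples and reads were not used. Coordinates count from 1.

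Overlap, width and kind of sequence were computed with Python 3.11.15, numpy 2.4.6 and scipy 1.17.1, and figures with matplotlib 3.10.9. Overlap functions were tested on simulated data. Shares carry 95% Clopper-Pearson intervals. A count of 0 was given an upper limit of 3 counts of the total. Alternatives were overlap by 1 bp, by 50% of both peaks or by 25% of the peak itself, peaks at or above the median score, peaks outside the mitochondrial genome, chromosomes 1 to 22 and X, and peaks within 1000 bp merged. Named regions were peaks of the 4 lists merged by 1 bp. For each antibody up to 5 lost, 5 kept and 5 new regions with the highest score outside the mitochondrial genome were named, with the widest peak of each list and clusters of at least 5 peaks in any of the 4 lists. The peaks, kinds and rules were chosen with earlier results of these data known.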

Additional observations from a re-analysis of the deposited data

Results flagged for a closer look

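After peaks within 1000 bp were merged, the number of γ-tubulin peaks was higher in shTUBG U2OS than in U2OS by 11 in asynchronous cells (58 and 47), whereas it was lower by 43 at 3 h (25 and 68), by 22 at 7 h (17 and 39) and by 50 at 9 h (30 and 80). The result stood out because its sign in asynchronous cells was opposite to that at the other times. With 1 list per time and line the difference was not tested. Dispersed γ-tubulin peaks on chromosomes moved with it, at 9 and 40 in the asynchronous lists of U2OS and shTUBG U2OS. Their part in the result was not tested.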

How the results depend on the processing

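No paired analysis was possible because the 2 samples of a group share 1 list and its peaks have no replicate number. Leaving out 1 sample of a group could not be done for this reason. With overlap by 50% of both peaks, the kept share was 9.8% for γ-tubulin and 39% for PCNA, and the new or touched share was 89.4% for γ-tubulin and 47.1% for PCNA, since fewer pairs pass this rule by construction. With peaks within 1000 bp merged, the kept PCNA share was 39.2%, the new or touched PCNA share 53.5%, and the change in the number of γ-tubulin peaks became 23.4%, opposite in sign to the -7.84% of the peaks as called. The cause was not tested. The other 27 of 34 alternative values stayed within the interval or within 1.5 times of the main value. The kept share stayed lower for γ-tubulin than for PCNA under each of the 7 alternatives. Depth is unknown, so a position without a peak is one not called at the depth and threshold of its list.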

Other observations

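Mcm5, a subunit of the replicative helicase, and the transcription factor FoxM1 were precipitated in U2OS but not in shTUBG U2OS, and their asynchronous lists were set beside the positions above. Of the 73 lost γ-tubulin peaks, 59 overlapped an Mcm5 peak (80.8%, 69.9 to 89.1) and 57 a FoxM1 peak (78.1%, 66.9 to 86.9). Of the 22 kept γ-tubulin peaks, 18 overlapped Mcm5 (81.8%, 59.7 to 94.8) and 9 FoxM1 (40.9%, 20.7 to 63.6). Of the 69 new γ-tubulin peaks, 1 overlapped Mcm5 (1.45%, 0.0367 to 7.81) and 3 FoxM1 (4.35%, 0.906 to 12.2). New γ-tubulin positions were thus rarely called for Mcm5 or FoxM1 in asynchronous U2OS. Over the U2OS lists of all antibodies and times, 17 of the 69 overlapped a peak (24.6%, 15.1 to 36.5). New peaks come from shTUBG U2OS and share no base with the U2OS γ-tubulin list, while the Mcm5 and FoxM1 lists are of U2OS. The contrast with lost and kept peaks is therefore confounded with line. It cannot show whether either protein lay at new positions in shTUBG U2OS. Lost and kept positions were alike in their share with asynchronous Mcm5 within counting error. They were not alike with the Mcm5 list of U2OS at 7 h, which held 29 peaks. It overlapped 1 of the 73 lost peaks (1.37%, 0.0347 to 7.4) and 13 of the 22 kept peaks (59.1%, 36.4 to 79.3). At 3 h the shares were 84.9% of lost and 72.7% of kept peaks, and at 9 h 79.5% and 59.1%.

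For PCNA the kept and lost peaks of U2OS stood further apart in the asynchronous Mcm5 and FoxM1 lists. Mcm5 was found at 45 of 61 kept (73.8%, 60.9 to 84.2) and at 15 of 55 lost peaks (27.3%, 16.1 to 41), and FoxM1 at 51 kept (83.6%, 71.9 to 91.8) and 22 lost peaks (40%, 27 to 54.1). Lost PCNA peaks were also narrower, and the part of width in this difference was not tested. The lists of a line and time share their input samples, so they are not independent.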
